A study of Rattus norvegicus with 48 samples.

Results

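Adenosine signalling was followed through 9 genes of 14511 measured in rat liver: the receptor genes Adora1, Adora2a, Adora2b and Adora3, the adenosine-forming ecto-enzyme genes Entpd1 and Nt5e, the clearing enzyme genes Ada and Adk, and the transporter gene Slc29a1. They were chosen by name as genes of a mediator of preconditioning, and each is represented by its probe set (the group of array probes summarised to 1 value) of highest mean over all arrays. Liver biopsies of 48 male Wistar rats, 1 array per rat, were compared in 5 groups; all rats were under fentanyl/fluanisone and midazolam anaesthesia and had their abdomen opened. The sham group (8 rats) had laparotomy alone. The ischemia and reperfusion group (IRI, 10 rats) had its total liver blood flow stopped for 30 min and was sampled after 30 min of reperfusion. The preconditioned group (IPC, 10 rats) was first made ischemic for 10 min and reperfused for 10 min, and then went through the same as IRI. The postconditioned group (IPO, 10 rats) had 3 short cycles as the long ischemia ended, each with reperfusion for 30 sec and renewed ischemia for 30 sec, and the IPC+IPO group (10 rats) had both treatments. Biopsies were taken from the right lobe, so that the values are mRNA levels of whole liver tissue at 1 early time.

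Adenosine builds up outside cells when ATP is released from stressed tissue. CD39, the product of Entpd1, cuts ATP and ADP to AMP, and CD73, the product of Nt5e, cuts AMP to adenosine. Of the adenosine receptors, those of Adora1 and Adora3 couple to inhibitory G proteins, and those of Adora2a and Adora2b raise cAMP. Adenosine is removed through the equilibrative transporter ENT1 (Slc29a1) and then phosphorylated to AMP by adenosine kinase (Adk) or deaminated to inosine by adenosine deaminase (Ada). Adenosine released by a short ischemia is a classical trigger of preconditioning in heart and liver.

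Values are log2 expression values, so that a difference of 1 is a doubling; only differences of 1 gene between groups are read, since levels of different probe sets cannot be set against each other. The number of arrays limits the precision. Arrays differed in the SD of their log2 values over all genes, called array spread here, which ran from 1.499 to 1.966 and averaged 1.72 in sham and 1.77 in IRI, beside 1.85 for IPC, 1.91 for IPO and 1.86 for IPC+IPO. The array of IPC+IPO animal 38 had the lowest spread. The 12 hepatocyte markers measured had a mean level between 11.37 and 12.26 in every array, against array medians of 5.78 to 5.92 over all genes. A gene was called where its Benjamini-Hochberg adjusted p over all genes, from limma, was under 0.05.

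Adora2b, the gene of the low-affinity A2B receptor, had the smallest p of the 9 genes over the 5 groups. It was lowest in sham, where 8 rats ran from 4.36 through a median of 4.92 to 5.46. IRI rats ran from 5.02 (median 5.35) to 6.07, IPC+IPO rats from 4.81 (median 5.54) to 6.29, IPC rats from 4.39 (median 5.50) to 6.87, and IPO rats from 5.18 (median 6.18) to 7.19. All 10 IRI rats lay above the sham mean, and 9 of the 10 IPO rats lay above every sham rat. IPC rats were the most uneven: animals 12, 14 and 15 lay at 6.74, 6.87 and 6.45, above every IRI rat, while animal 20 lay at 4.39, below every IRI rat. The promoter window of Adora2b is shown with that of Nt5e because both genes are known to respond to hypoxia-inducible factors; capitals mark matches to the core of their response element (ACGTG or GCGTG on either strand, so CACGT or CACGC as printed). Windows are from RefSeq on GRCr8, from 250 bases before to 50 after the gene start.
Adora2b, chr10:47439462-47439761, plus strand: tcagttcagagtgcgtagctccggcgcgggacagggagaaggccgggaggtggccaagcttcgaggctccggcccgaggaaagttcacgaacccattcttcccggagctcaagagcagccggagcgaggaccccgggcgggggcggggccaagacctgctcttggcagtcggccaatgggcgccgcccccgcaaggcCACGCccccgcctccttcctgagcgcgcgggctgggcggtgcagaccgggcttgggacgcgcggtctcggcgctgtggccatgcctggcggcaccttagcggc
Nt5e, chr8:98150675-98150974, plus strand: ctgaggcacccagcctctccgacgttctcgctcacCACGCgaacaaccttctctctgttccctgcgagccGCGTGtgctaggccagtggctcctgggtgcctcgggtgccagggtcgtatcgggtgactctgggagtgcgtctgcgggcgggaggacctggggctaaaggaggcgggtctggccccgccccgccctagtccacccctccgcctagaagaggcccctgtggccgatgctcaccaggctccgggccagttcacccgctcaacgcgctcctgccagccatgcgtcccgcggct
Adora2b had 1 match, starting 53 bases before the start, and Nt5e had 2, at 215 and 180 bases before it. Such a match was present in 3 of the 8 members that have a window (the other was Ada) and in 41.6% of all 33469 windows of this length. The cAMP response element TGACGTCA and its core TGACG (which the longer motif contains), searched on both strands, were in none of the 8 windows and in 1.83% and 21.2% of all windows. The Adora2b window had a GC content of 72% and 33 CpG pairs, against medians of 51.7% and 7 over all windows.

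Postconditioned livers had more Adora2b mRNA than livers without ischemia and than livers with ischemia alone. Against sham it rose by 1.29 ± 0.25 (SE) on the log2 scale in IPO, a 2.44-fold rise (limma, adjusted p = 0.00176), from 4.93 ± 0.42 (SD, n = 8) to 6.21 ± 0.58 (SD, n = 10). Against IRI, at 5.45 ± 0.35 (SD, n = 10), it rose by 0.77 ± 0.23 (SE), or 1.7-fold (limma, adjusted p = 0.024), with 9 of 10 IPO rats above the IRI mean and 6 above every IRI rat. The IPO and IRI values overlapped in part. With array spread as a covariate the differences stood at 1.24 ± 0.28 and 0.73 ± 0.25 but were not called (limma, adjusted p = 0.0755 and 0.289), in fits that called 0% and 0.0138% of all genes. Without IPO animal 26, the highest value, the difference from IRI had an adjusted p of 0.0513 in limma.

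In the other groups the Adora2b differences were not past the threshold as deposited. IRI exceeded sham by 0.52 ± 0.25 (SE, limma adjusted p = 0.412), IPC exceeded sham by 0.76 ± 0.25 (adjusted p = 0.0518) and IPC+IPO exceeded sham by 0.62 ± 0.25 (adjusted p = 0.121). The IPC difference from sham was called without any 1 of 9 arrays, namely IRI animal 7, IPC animals 13, 17 and 20, IPO animals 26 and 30, IPC+IPO animals 37 and 38 and sham animal 48, and its adjusted p ran from 0.0158 to 0.124 when single arrays were left out. Without any 1 of the IRI, IPO or IPC+IPO arrays named, the difference stayed at 0.76. IPC and IPC+IPO livers lay at 5.69 ± 0.78 and 5.55 ± 0.47 (SD, n = 10 each), 0.24 (95% confidence interval -0.23 to 0.71) and 0.10 (-0.37 to 0.57) from IRI. Combined conditioning stood below postconditioning alone, with a difference of -0.66 ± 0.23 (SE), 4 IPO rats above every IPC+IPO rat, and an unadjusted p of 0.00671 in limma, but an adjusted p of 0.938. IPO exceeded IPC by 0.52 ± 0.23 (limma, adjusted p = 0.835). The test of whether preconditioning acted differently with and without postconditioning gave -0.90 ± 0.33 (limma, unadjusted p = 0.00879, adjusted p = 0.209). In the order of means, sham, IRI, IPC+IPO, IPC and IPO, no 2 neighbours differed past the threshold.

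**Figure D1:**
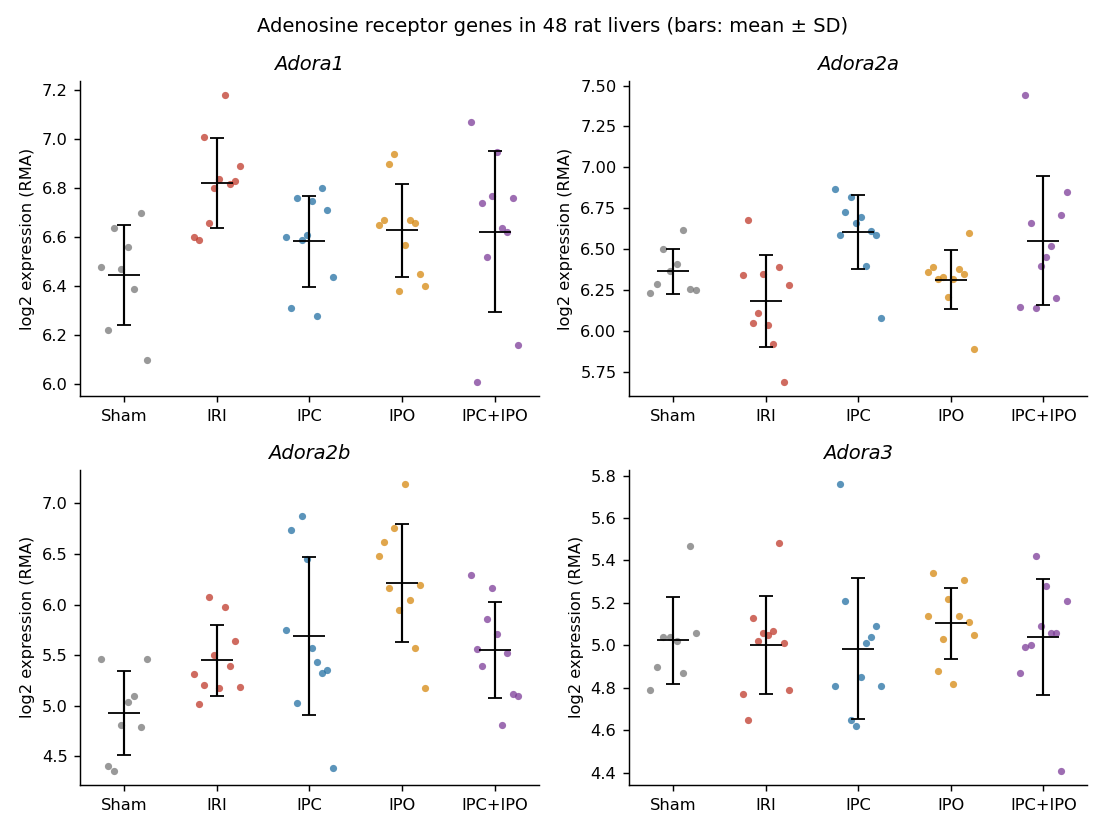
Log2 expression of the 4 adenosine receptor genes in each rat (points), with the mean and SD of each group (bars). Adora2b steps up from sham (mean 4.93) to IPO (mean 6.21), Adora2a is highest in IPC and IPC+IPO (means 6.60 and 6.55), Adora1 is highest in IRI (mean 6.82), and Adora3 stays between means of 4.98 and 5.10.

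Adora2a, the gene of a receptor that dampens leukocytes and widens vessels, had its highest means in both groups with preconditioning. Sham rats lay between 6.23 and 6.62 (median 6.33) and IRI rats between 5.69 and 6.68 (median 6.19). IPC rats lay between 6.08 and 6.87 (median 6.63), IPO rats between 5.89 and 6.60 (median 6.34) and IPC+IPO rats between 6.14 and 7.44 (median 6.49). Against IRI, 9 of 10 IPC rats and 8 of 10 IPC+IPO rats lay above the IRI mean, but no pair of groups was fully separate. The moderated F test of limma over the 5 groups called Adora2a (adjusted p = 0.0404), as it did Adora2b (adjusted p = 0.0103) and Slc29a1 (adjusted p = 0.0464), which makes 3 of 9 members where 14.4% of all genes were called. With array spread as a covariate the F test called none of them (adjusted p = 0.122, 0.0776 and 0.577) and 1.34% of all genes. Leaving out single arrays left 1 to 4 members called by the F test, in fits where the share of all genes called was not counted.

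Pair by pair, Adora2a passed no threshold. IPC exceeded IRI by 0.42 ± 0.12 (SE, limma, unadjusted p = 0.000811, adjusted p = 0.154) and IPC+IPO exceeded IRI by 0.37 ± 0.12 (adjusted p = 0.107). Without IRI animal 1 both were called, at adjusted p values of 0.0492 and 0.0494, and without IPC+IPO animal 38 the second was (adjusted p = 0.0307). Without IRI animal 1 the differences themselves were little changed, at 0.44 and 0.39 (limma, unadjusted p = 0.000759 and 0.00262). The adjusted p also depends on the p-values of all other genes. IPO stood below IPC, with a difference of -0.29 ± 0.12 (adjusted p = 0.835), and IPC+IPO stood above IPO by 0.24 ± 0.12 (adjusted p = 0.938). With the covariate the 2 differences from IRI were 0.36 ± 0.11 and 0.31 ± 0.11. Kupffer cell markers, which mark the resident liver macrophages, had a median difference from IRI of 0.47 in IPC, of 0.33 in IPO and of 0.38 in IPC+IPO, with 10 of 11 above 0 in each and 0, 2 and 0 past the threshold (0.0276%, 22.8% and 0% of all genes). Per rat, the mean level over these 11 markers ran from 7.57 to 8.26 in IPC, 6.74 to 8.06 in IRI, 7.01 to 8.28 in sham, 6.98 to 8.37 for IPO and 7.10 to 8.45 for IPC+IPO. With the covariate the 3 medians were 0.29, -0.05 and 0.20. Cd163, a macrophage scavenger receptor, was among the 3 genes most like Adora2a. The part of these markers in the Adora2a values was not tested, and in whole biopsies fewer cells of a type and less RNA per cell cannot be told apart.

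Adora1, the gene of the high-affinity A1 receptor, was highest in IRI. Sham rats ran from 6.10 to 6.70 (median 6.48), IRI rats from 6.59 to 7.18 (median 6.83), IPC rats from 6.28 to 6.80 (median 6.60), IPO rats from 6.38 to 6.94 (median 6.65) and IPC+IPO rats from 6.01 to 7.07 (median 6.69). Each IRI rat lay above the sham mean and 7 of 10 lay above every sham rat, while all 10 IPC rats lay below the IRI mean. IRI exceeded sham by 0.38 ± 0.11 (SE, limma, adjusted p = 0.099), which is not past the threshold. With array spread as a covariate the difference was again 0.38 ± 0.11 and was called (limma, adjusted p = 0.0296), in a fit that called 5.9% of all genes. IPC differed from IRI by -0.24 ± 0.10 (limma, adjusted p = 0.217), by -0.39 after renewed quantile normalization and by -0.13 with array weights (adjusted p = 0.138 and 0.428). The 3 conditioned groups had means of 6.59 to 6.63, between those of sham (6.45) and IRI (6.82).

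Adora3, the A3 receptor gene, had an unadjusted p above 0.05 in every comparison, as deposited and with array spread as a covariate. Sham rats ran from 4.79 to 5.47, IRI rats from 4.65 to 5.48, IPC rats from 4.62 to 5.76, IPO rats from 4.82 to 5.34 and IPC+IPO rats from 4.41 to 5.42, so that all groups overlapped widely. IRI differed from sham by -0.02 (95% confidence interval -0.26 to 0.22) and IPO from IRI by 0.10 (-0.12 to 0.33). It was the only member whose mean over all arrays lay under 5.19, the limit that left out 33.3% of genes as dim. The sham mean of Adora2b, 4.93, also lay under this limit.

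The enzymes that form adenosine were not past the threshold in any comparison as deposited. Nt5e (CD73) ran from 8.22 to 8.86 (median 8.58) in sham rats, from 7.54 to 8.67 (median 8.25) in IRI rats, 7.81 to 8.61 (median 8.39) in IPC rats, 8.01 to 8.52 (median 8.36) in IPO rats and 7.41 to 8.58 (median 8.41) with both treatments. All 4 ischemic groups had lower means than sham, and 5 of 10 IRI rats lay below every sham rat. IRI differed from sham by -0.34 ± 0.13 (SE, limma, adjusted p = 0.24). The difference was called in 3 of the alternatives: at -0.39 ± 0.12 with array spread as a covariate (limma, adjusted p = 0.0345), at -0.49 ± 0.13 after renewed quantile normalization (adjusted p = 0.0337) and at -0.35 ± 0.10 with array weights (adjusted p = 0.0135). The covariate fit called 5.9% of all genes, and for the others this share was not counted. The median of 12 stellate and mesenchymal markers in the same comparison was -0.22, with 9 of 12 at or below 0. Limma called 1 of them, Pdgfra, beside 0.241% of all genes. Medians of the other cell type lists ran from -0.10 (endothelial, 1 of 8 above 0) to 0.30 (erythroid and platelet), with none called. The part of these markers in the Nt5e value was not tested.

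Entpd1 (CD39) ran from 5.55 to 6.46 in sham, from 5.55 to 6.07 in IRI, from 5.52 to 6.35 in IPC and from 5.42 to 6.68 in IPC+IPO. IPO rats lay between 5.47 and 5.79, all below the sham mean of 5.91. IPO differed from sham by -0.30 ± 0.13 (SE, limma, adjusted p = 0.0889). The difference was called at -0.30 with only the groups compared and at -0.39 with array weights (limma, adjusted p = 0.0425 and 0.000666). For these fits the share of all genes called was not counted. The Entpd1 level moved with array spread. Within groups, over the 48 arrays, Entpd1 was lower on arrays of higher spread (Pearson r = -0.69, Spearman rho = -0.60, permutation p = 1e-05 and 2e-05, adjusted over 9 members 3e-05 and 6e-05; r = -0.58 without the 2 arrays of most extreme spread). With spread as a covariate the difference from sham was 0.02 ± 0.11.

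**Figure D2:**
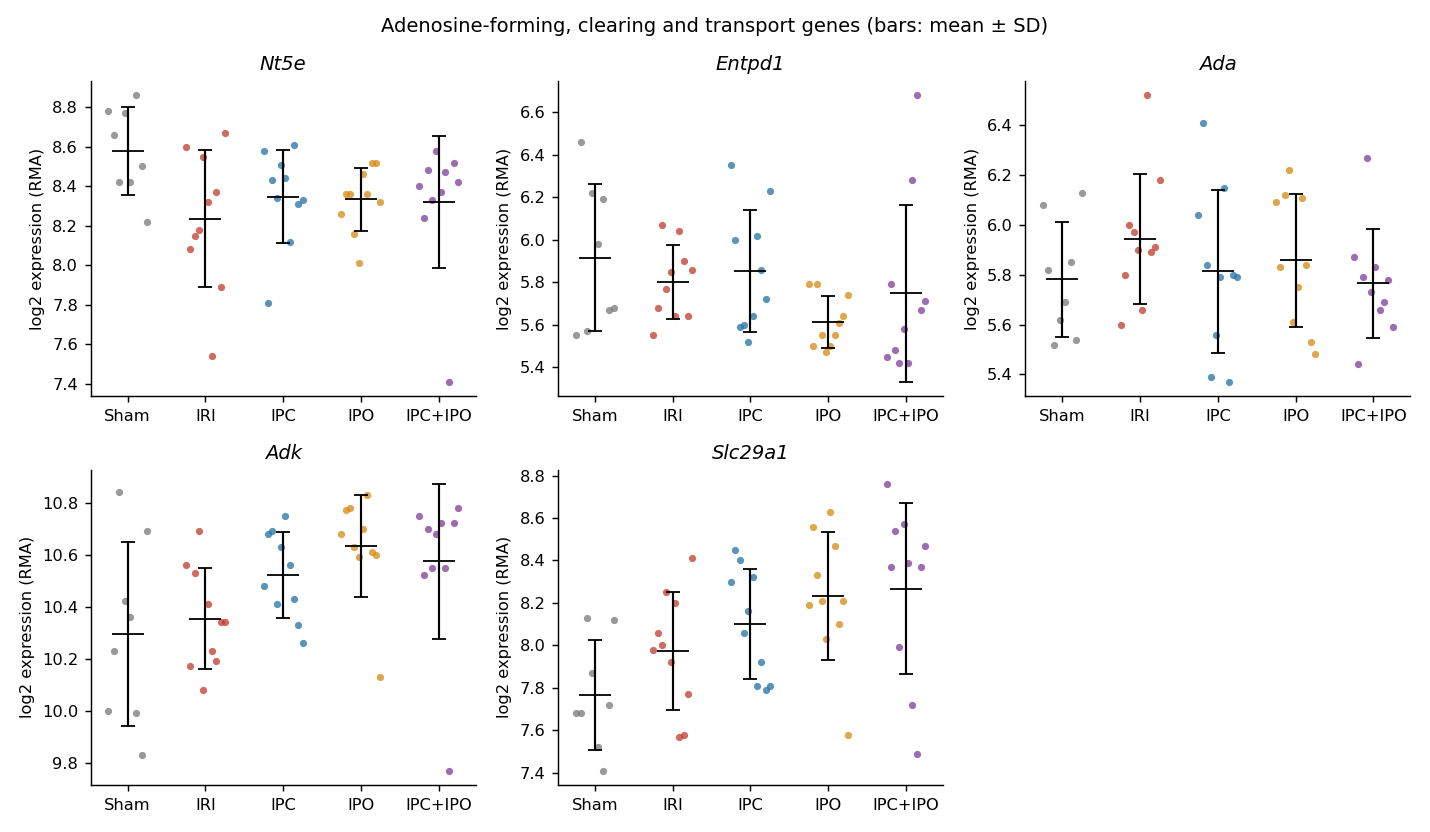
Log2 expression of the adenosine-forming (Nt5e, Entpd1), clearing (Ada, Adk) and transport (Slc29a1) genes in each rat (points), with the mean and SD of each group (bars). Nt5e is highest in sham (mean 8.58), and Adk and Slc29a1 are higher in the conditioned groups than in sham, with IPC+IPO animal 38 lowest of its group for Nt5e, Adk and Slc29a1.

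As deposited, the genes that take up and phosphorylate adenosine rose in postconditioned livers against sham, and the transporter gene also rose with both conditionings; all 3 calls were lost with array spread as a covariate and after renewed quantile normalization. Slc29a1 (ENT1) ran from 7.41 to 8.13 (median 7.70) in sham rats, from 7.57 to 8.41 (median 7.99) in IRI rats, 7.79 to 8.45 (median 8.11) in IPC rats, 7.58 to 8.63 (median 8.21) in IPO rats and 7.49 to 8.76 (median 8.38) with both treatments. The IPO and IPC+IPO groups had 7 of 10 rats each above every sham rat. Slc29a1 rose against sham by 0.46 ± 0.14 (SE) in IPO (limma, adjusted p = 0.02) and by 0.50 ± 0.14 in IPC+IPO (limma, adjusted p = 0.0397), 1.38-fold and 1.42-fold. IPC exceeded sham by 0.34 ± 0.14 (adjusted p = 0.142), and IPC+IPO exceeded IRI by 0.29 ± 0.13 (adjusted p = 0.202, and 0.0462 without IPC+IPO animal 38). With the spread covariate the Slc29a1 differences from sham were 0.11 ± 0.12 in IPO, 0.25 ± 0.11 in IPC+IPO and 0.09 ± 0.11 in IPC (limma, adjusted p = 0.785, 0.297 and 0.698), and after renewed quantile normalization they were 0.07, 0.20 and 0.03. The difference of IPC+IPO from IRI was 0.13 and 0.10 in these settings. With array weights the differences were larger, at 0.76 in IPC+IPO and 0.41 in IPC against sham and 0.42 in IPC+IPO against IRI (limma, adjusted p = 6.72e-07, 0.00456 and 0.00481). The share of all genes called with array weights was not counted, so that these adjusted p values are no result about Slc29a1. The call in IPO was lost without sham animal 46 (adjusted p = 0.0541), and that in IPC+IPO was lost without any 1 of 13 arrays, namely IPC+IPO animals 31, 32, 33, 35, 36, 39 and 40 and sham animals 41, 42 and 44 to 47 (highest adjusted p = 0.114).

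Adk, the kinase that returns adenosine to AMP, ran from 9.83 to 10.84 (median 10.29) in sham rats, from 10.08 to 10.69 (median 10.34) in IRI rats, 10.26 to 10.75 (median 10.52) in IPC rats, 10.13 to 10.83 (median 10.65) in IPO rats and 9.77 to 10.78 (median 10.69) with both treatments. The sham SD, 0.35, was the largest of the 5 groups, and the highest sham rat exceeded every rat of the other groups. Adk rose by 0.34 ± 0.12 (SE) in IPO against sham, 1.26-fold (limma, adjusted p = 0.033); the call was lost without any 1 of 9 arrays, namely IPO animals 22, 23, 26 and 27 and sham animals 41, 42, 45, 46 and 47 (highest adjusted p = 0.0981). IPO exceeded IRI by 0.28 ± 0.11 (adjusted p = 0.0565) and IPC+IPO exceeded sham by 0.28 ± 0.12 (adjusted p = 0.136). The Adk difference from IRI was called without any 1 of 5 arrays (IRI animals 1 and 4, IPO animal 30, IPC+IPO animal 38 and sham animal 43), with a lowest adjusted p of 0.0249. Without IPC+IPO animal 38 or sham animal 43 the difference itself stayed at 0.28. The spread covariate left Adk at 0.03 ± 0.09 in IPO and 0.06 ± 0.08 in IPC+IPO against sham and at 0.04 ± 0.08 in IPO against IRI (limma, adjusted p = 0.944, 0.804 and 0.9), and after renewed quantile normalization at -0.03, -0.05 and 0.12. With array weights the difference of IPC+IPO from sham was 0.45 (limma, adjusted p = 3.57e-05), again with the share of all genes called not counted. Ada, which deaminates adenosine, had group means between 5.77 and 5.94 and an unadjusted p above 0.05 in every comparison; its adjusted p values were 0.356 or more.

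The Adk and Slc29a1 values moved with array spread. Within groups, over the 48 arrays, Adk correlated with spread at r = 0.78 (rho = 0.72) and Slc29a1 at r = 0.70 (rho = 0.66), each with a permutation p of 1e-05, the smallest these 100000 permutations can give, and an adjusted p over 9 members of 3e-05 for r and 4.5e-05 for rho. Without the 2 arrays of most extreme spread r was 0.72 and 0.60. Array spread is itself computed from the log2 values of all genes, and Adk and Slc29a1 lay at percentiles 97.7 and 87 of mean level. The share of all genes that follow spread as closely was not counted. These r values, like that of Entpd1, therefore cannot be called particular to the members. For Adora2b and Adora1 r was 0.05 and 0.01 (permutation p = 0.756 and 0.944). For Adora2a r was 0.31 (permutation p = 0.0353, adjusted 0.0635), and for Nt5e it was 0.44 (permutation p = 0.00235, adjusted 0.00529) but 0.09 without the 2 farthest arrays, so that this relation rests on those arrays.

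**Figure D3:**
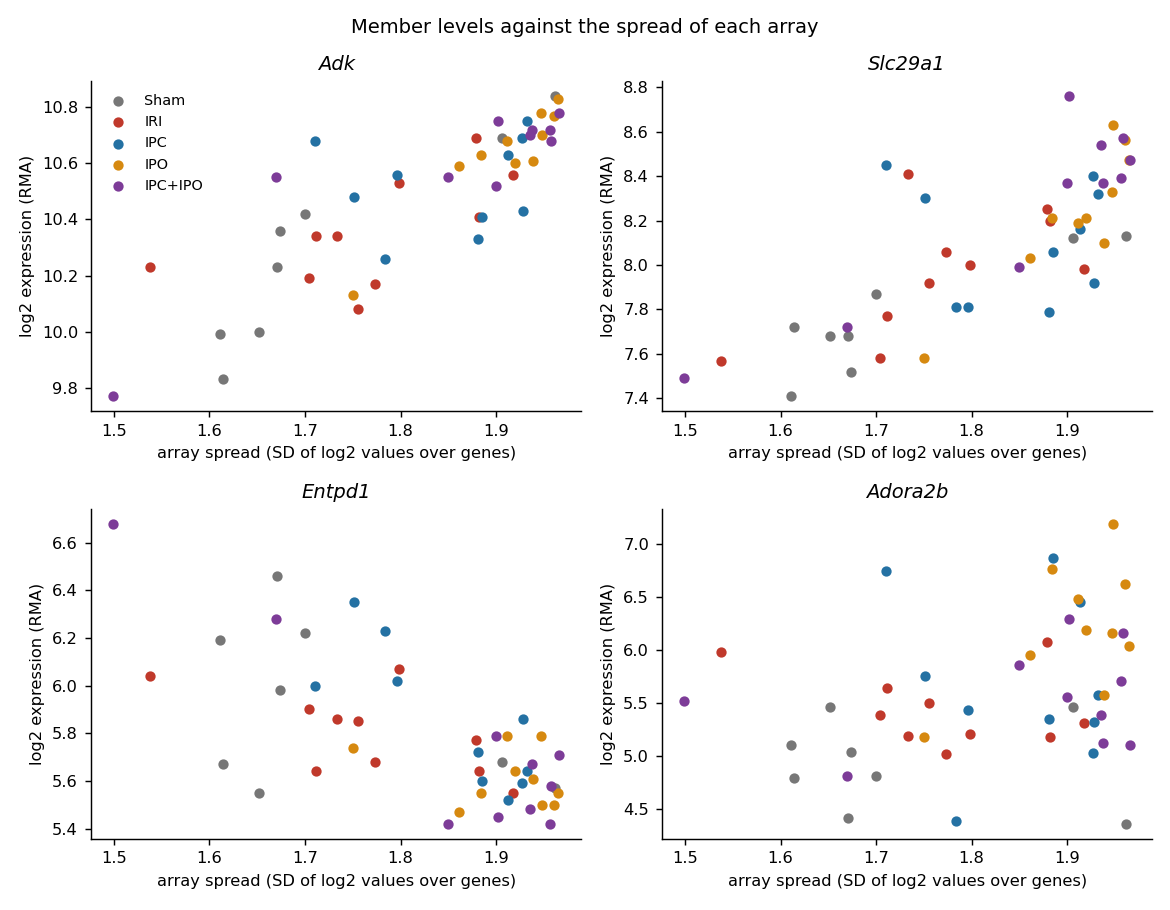
Log2 expression of 4 members (y axis) against array spread, the SD of all log2 values of an array (x axis); each point is 1 rat, coloured by group. Adk and Slc29a1 climb and Entpd1 declines with spread (within-group r = 0.78, 0.70 and -0.69), while Adora2b shows little relation to it (r = 0.05).

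Counts of members called are set beside the share of all genes called. In IRI against sham limma called 0 of 9 members and 0.241% of all genes; 3 members and 11.5% of genes had an unadjusted p under 0.05. In IPC against IRI it called 0 of 9 and 0.0276% of genes, with 2 members and 19.3% of genes at an unadjusted p under 0.05. In IPO against IRI it called 1 of 9 (Adora2b) and 22.8% of genes, with 2 members and 44.5% of genes unadjusted. In IPC+IPO against IRI it called 0 of 9 and 0% of genes, with 2 members and 21.5% of genes unadjusted. The median difference of the members in these 4 comparisons was 0.06, 0.11, 0.10 and 0.09, beside 0.03, -0.01, -0.04 and -0.02 over all genes. In IPC against sham limma called 0 of 9 members and 6.59% of genes, with 2 members and 23.9% of genes unadjusted. In IPO against sham it called 3 of 9 (Adora2b, Adk and Slc29a1) and 23.2% of genes, with 4 members and 40.7% of genes unadjusted. In IPC+IPO against sham it called 1 of 9 (Slc29a1) and 3.62% of genes, with 3 members and 23.6% of genes unadjusted. Between the 3 conditioned groups limma called 0 members and 0% of genes; at an unadjusted p under 0.05 there were 2 members and 4.06% of genes in IPO against IPC, 0 members and 1.62% in IPC+IPO against IPC, and 2 members and 3.32% in IPC+IPO against IPO. In the interaction limma called 0 members and 0% of genes, with 1 member and 20.3% of genes unadjusted. The 3 comparisons with IRI share its 10 rats, and those with sham share its 8. With array spread as a covariate, limma called 2 members in IRI against sham, Adora1 and Nt5e, beside 5.9% of genes. It called 0 members in each of the other 10 comparisons, the interaction included; of all genes it called 1.9% in IPC against sham, 0.234% in IPC+IPO against sham, 0.062% in IPC+IPO against IRI, 0.0138% in IPO against IRI and 0% in the other 6.

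**Figure D4:**
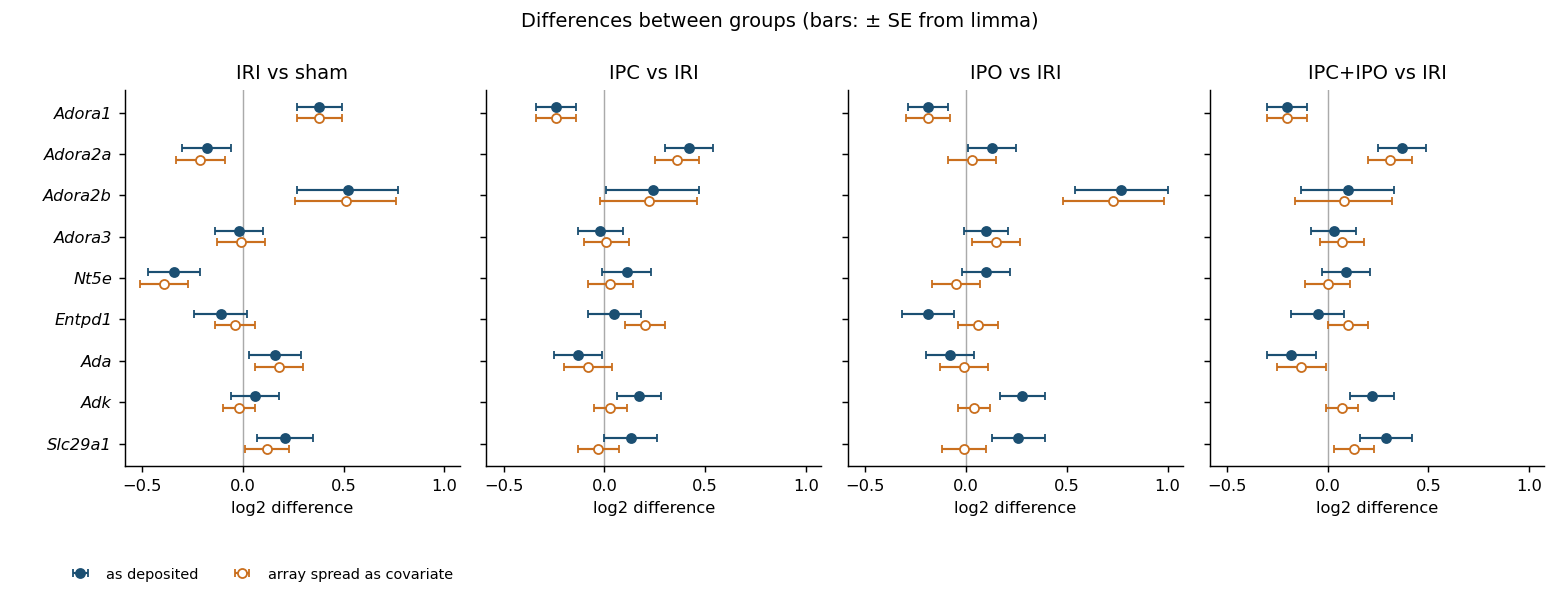
Log2 differences of the 9 members in 4 comparisons (x axis), with bars of ± 1 SE from limma, as deposited (filled) and with array spread as a covariate (open). Adora2b in IPO against IRI (0.77) keeps its size with the covariate (0.73), while Adk in the same comparison goes from 0.28 to 0.04.

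Other genes of the pathway were read from 7 lists, whose counts in IPO against IRI stand beside 22.8% of all genes called there. Of 12 genes listed as other ecto-enzymes and release channels, 5 rose and 1 fell in IPO against IRI, with a median of 0.33 beside -0.04 over all genes. Where their products act was not tested. In IRI against sham, IPC against IRI and IPC+IPO against IRI limma called none of them, with 1, 6 and 6 at an unadjusted p under 0.05, beside 11.5%, 19.3% and 21.5% of all genes. The genes that rose were Enpp3, which cuts ATP to AMP (0.90 ± 0.22 SE, adjusted p = 0.0123), Entpd5 (0.91 ± 0.22), the acid phosphatase gene Acp3 (0.60 ± 0.15), Dpp4, whose product binds adenosine deaminase (0.53 ± 0.16), and Enpp1 (0.51 ± 0.16). Entpd2, an ecto-ATPase, fell by 0.30 ± 0.09. With the spread covariate none of the 6 passed; Enpp3 stood at 0.42 and Entpd2 at -0.30. Of 17 genes of intracellular AMP and adenosine metabolism, Ahcyl1, a relative of the adenosylhomocysteine hydrolases, rose by 0.65 ± 0.19 and the AMP deaminase gene Ampd3 fell by 0.31 ± 0.11 in IPO against IRI (median 0.17). With the covariate neither passed, and they stood at 0.18 and -0.12 (limma, adjusted p = 0.627 and 0.711). Limma called none of the 17 in the other 3 comparisons, with 2, 4 and 6 at an unadjusted p under 0.05. Of 6 other nucleoside transporters, the concentrative transporter gene Slc28a2 rose by 0.91 ± 0.29 and Slc28a3 fell by 0.25 ± 0.09 there (median -0.14), and with the covariate neither passed, at 0.26 and -0.11; in the other 3 limma called none, with 0, 2 and 0 unadjusted.

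Of the genes on the receiving side, those of receptor coupling passed in both directions, in IPO against IRI, and none of them did with the covariate. None of 14 P2 receptors, which sense nucleotides such as ATP and ADP, passed in limma in the 4 comparisons (medians 0.04, 0.02, 0.01 and -0.01). At an unadjusted p under 0.05 there were 0, 2, 6 and 3 of them. For this list and those that follow, the shares of all genes under that limit were 11.5%, 19.3%, 44.5% and 21.5%. P2ry1 stood at 0.51 ± 0.22 in IPO against IRI (limma, adjusted p = 0.069). Of 25 genes of receptor coupling, 6 rose and 5 fell in IPO against IRI, beside 22.8% of all genes called. Among the 6 of smallest p, Prkaca, a catalytic subunit of protein kinase A, rose by 0.45 ± 0.11, its regulatory subunit gene Prkar1a by 0.41 ± 0.12, and the G protein genes Gnai3 and Gnaq by 0.71 ± 0.19 and 0.46 ± 0.15. The cAMP phosphodiesterase gene Pde4a fell by 0.44 ± 0.10 and the adenylyl cyclase gene Adcy2 by 0.30 ± 0.10. The other called genes were Prkacb and Creb1, which rose by 0.50 and 0.30, and Adcy8, Pde4c and Adcy4, which fell by 0.31, 0.33 and 0.26; these were named after their values were seen. The list median was 0.10. Of 10 cAMP-responsive genes limma called none in the 4 comparisons (4, 4, 2 and 2 at an unadjusted p under 0.05), with medians of 0.24, 0.18, 0.16 and 0.13 in IRI against sham and in IPC, IPO and IPC+IPO against IRI. Crem stood at 0.66 ± 0.18 in IRI against sham (adjusted p = 0.0843) and Nr4a1 at 0.78 ± 0.26 in IPC against IRI. Against sham, Crem, Nr4a1 and Dusp1 rose in all 3 conditioned groups (Crem by 0.88, 0.96 and 0.89 ± 0.18 in IPC, IPO and IPC+IPO), Sik1 rose in IPC and IPO, and Areg and Ppargc1a fell in IPO. These are 4, 6 and 3 of the 10 in IPC, IPO and IPC+IPO, beside 6.59%, 23.2% and 3.62% of all genes. With the covariate limma called 3, 0 and 1 of them: Crem, Nr4a1 and Dusp1 in IPC (0.55, 1.17 and 1.34) and Nr4a1 in IPC+IPO (1.27). The 6 genes were named after their values were seen, and Nr4a1 and Dusp1 are also immediate-early genes. Of 10 hypoxia-inducible genes, Hk2, a hexokinase, and Bnip3, a mitophagy receptor, fell by 0.42 ± 0.10 and 0.66 ± 0.18 in IPO against IRI (list median -0.08). With the covariate neither passed, at -0.27 and -0.78 (limma, adjusted p = 0.281 and 0.0861). In the same comparison 3 of the 10 lay above 0, the highest being Vegfa at 0.47 (limma, adjusted p = 0.113). Vegfa was named after its value was seen, and a link of this list to Adora2b was not tested. As deposited, limma called none of the 10 in the other 3 comparisons, with 1, 1 and 2 at an unadjusted p under 0.05. With the covariate the calls in IRI against sham rose to 1 gene in each of 4 lists, beside 5.9% of all genes. These were the ecto-enzyme, AMP and adenosine metabolism, cAMP-responsive and hypoxia-inducible lists.

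**Figure D5:**
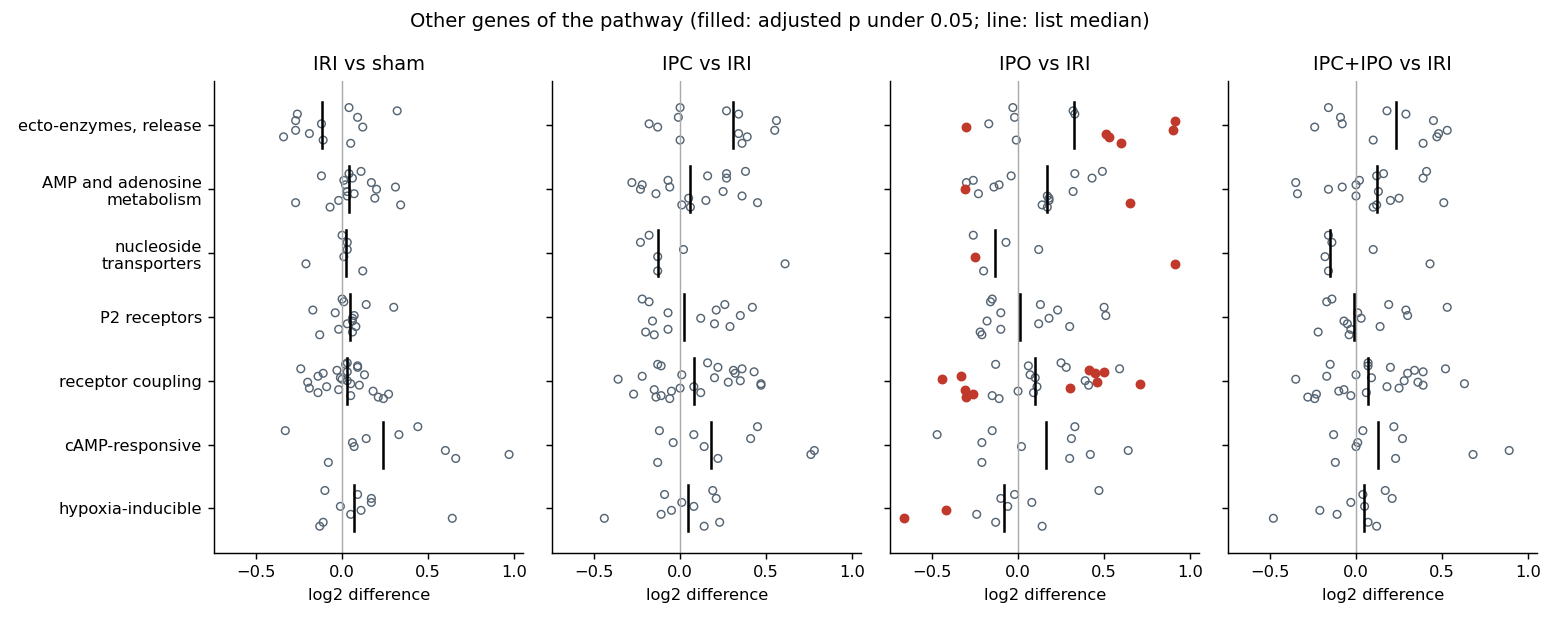
Log2 differences (x axis) of the other pathway genes, 1 point per gene, grouped by list, in 4 comparisons; filled points have an adjusted p under 0.05 and vertical lines mark list medians. Filled points appear in IPO against IRI alone, with 5 genes of the ecto-enzyme and release list to the right, 1 to the left, and 6 receptor coupling genes to the right and 5 to the left.

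Markers of other cells are given for IPO against IRI, the comparison in which Adora2b rose. There limma called 22.8% of all genes, and 44.5% had an unadjusted p under 0.05. A count near these shares is no result about the markers. Of the mast cell markers 4 of 9 fell, among them Kit by 0.30 ± 0.09 and Tpsab1 by 0.36 ± 0.11 (limma, adjusted p = 0.0254 and 0.0267), with a median of -0.27 and all 9 below 0. Their mean level ran from 3.95 to 4.11 in IPO and from 3.98 to 4.61 in IRI. Of 8 endothelial markers Eng rose by 0.47 ± 0.16 (median 0.30), and of 11 neutrophil markers Elane and Ngp fell by 0.37 ± 0.09 and 0.39 ± 0.13 (median -0.13). The 2 neutrophil markers above 0, S100a8 and S100a9, stood at 0.70 and 0.41 (limma, adjusted p = 0.0565 and 0.289). They were named after their values were seen. Of 12 stellate and mesenchymal markers Pdgfrb and Acta2 rose by 0.53 ± 0.17 and 0.52 ± 0.17 (median 0.18), and of 6 erythroid and platelet markers Hbb fell by 0.67 ± 0.24 (median -0.25). None of the 4 cholangiocyte and 2 B cell markers passed (medians 0.15 and -0.14, with 1 and 0 at an unadjusted p under 0.05). The 12 hepatocyte markers had a median of 0.27, with 4 that rose (among them Ass1 by 0.68 ± 0.15) and 1 that fell (Apoa1, by 0.21 ± 0.08), and none of the 12 T and NK cell markers passed (median -0.09, 3 at an unadjusted p under 0.05). None of these lists had a called gene in IPO against IRI with array spread as a covariate. Their part in the Adora2b value was not tested.

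Genes whose levels were most like each member's were sought by Pearson r of within-group deviations over the 48 arrays; they were picked as the highest of all genes, so no p is given. Adora2b was most like Srms, Gpr173 and Tnfsf13 (r = 0.52, 0.51 and 0.51), and Adora2a was most like Cd320, Cd163 and Vps37b (r = 0.65, 0.64 and 0.63). For Adora1 they were Fam117a, Rasal3 and Zfp710 (0.58, 0.55 and 0.54), and for Adora3 they were Slc7a8, Or9m1b and Ggta1 (0.57, 0.57 and 0.54). Nt5e was most like Rab5b, Slc35d1 and Smoc1 (0.76, 0.75 and 0.74), and Ada was most like Zfp428, Calml4 and Gimap6 (0.66, 0.65 and 0.65). Entpd1 was most like Cfap210, Pi15 and Or4p7 (0.77, 0.76 and 0.75), which themselves followed array spread (r = -0.68, -0.78 and -0.79). Adk was most like the mitochondrial enzyme genes Pccb, Gcdh and Idh3b (0.89, 0.88 and 0.88), which with spread removed stood at 0.72, 0.67 and 0.66. Slc29a1 was most like Masp2, Fggy and Cd82 (0.89, 0.88 and 0.87; 0.77, 0.74 and 0.73 with spread removed). All these correlations are over the same 48 arrays, and the r of the named genes with array spread ran from -0.79 (Or4p7) to 0.88 (Idh3b).

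Among the members themselves, 3 of 36 pairs were correlated within groups past an adjusted p of 0.05. The share of all gene pairs correlated so was not counted, so that this count is no result about the members. Adk and Slc29a1 varied together (Pearson r = 0.73, Spearman rho = 0.73, permutation p = 1e-05 and adjusted p = 0.00036 for each; r = 0.65 without the 2 rats farthest from the median of Adk), and with spread removed r was 0.41. Entpd1 ran against Slc29a1 (r = -0.51, permutation p = 0.00026, adjusted 0.00468; rho = -0.41, permutation p = 0.00373, adjusted 0.0671) and against Adk (r = -0.44, permutation p = 0.00212, adjusted 0.0254; rho = -0.33, permutation p = 0.0215, adjusted 0.193), and with spread removed these stood at -0.04 and 0.20. Without the 2 farthest rats they were -0.40 and -0.25. The 6 pairs of receptor genes had r between -0.31 (Adora1 with Adora2a) and 0.13 (Adora1 with Adora2b).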

How the data were processed

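One array was run per rat, on 48 livers. The deposited values are log2 expression values of 29215 probe sets, made by the authors with RMA and Affymetrix Expression Console, per the submitters' processing notes; versions are not given in the sources used here. Of the probe sets, 15316 carry 1 gene symbol, 317 several and 13582 none here. The probe set of highest mean was kept for each of 14511 genes, of which 14486 matched RefSeq by gene ID. The 5 groups, taken from the sample titles, entered 1 limma fit (version 3.58.1, R 4.3.3, lmFit and eBayes, 43 residual degrees of freedom), with p-values adjusted by Benjamini-Hochberg over all genes within each of 10 pairwise comparisons, the interaction and the moderated F test. Fits were tested on simulated data drawn for each gene on its own. Those data held no shared differences in array spread, so that the test does not bear on them. All 9 members are described in every group; a difference and its error are printed where the unadjusted p was under 0.05. Other pathway genes are named where they passed in 4 comparisons (up to 6 per list), otherwise by smallest p, and markers likewise (up to 2). Members and lists were chosen with earlier results of these data known. Correlations used deviations from group means and 100000 permutations. Promoter windows came from RefSeq (GRCr8); 8 of 9 members have one. Figures used matplotlib 3.10.9.
Alternatives were array spread as a covariate, renewed quantile normalization, median centring, array weights, a robust model with a variance trend, a fit of the compared groups alone, no dim genes, all probe sets, the most variable probe set, and leaving out each array.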

Additional observations from a re-analysis of the deposited data

Results flagged for a closer look

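In 6 of 45 gene and group pairs, 1 rat lay apart from its group by more than Dixon's 95% limit, which chance alone exceeds in about 1 of 20 groups. IPC+IPO animal 38, whose array had the lowest spread, was low for Nt5e (7.41, with the next rat at 8.24) and for Adk (9.77, next 10.52). IPO animal 30 was low for Adk (10.13, next 10.59). Adora3 was high in sham animal 47 (5.47, next 5.06) and in IPC animal 12 (5.76, next 5.21). Ada was high in IPC+IPO animal 34 (6.27, next 5.87).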

How the results depend on the processing

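Over the 9 alternatives other than leaving out arrays, the 23 named differences kept direction and side of the threshold in 177 cases, passed newly in 18, kept direction but no longer passed in 9, and changed sign in 3, of which Adk in IPO against sham also no longer passed. With array spread as a covariate limma called 2 members in IRI against sham and 0 in IPO against IRI, IPO against sham, IPC+IPO against sham and over any group; Entpd1 in IPO against sham turned to 0.02. With quantile normalization it called 1 in IRI against sham, 2 in IPO against IRI and 2 in IPC against sham, and Adk turned to -0.03 in IPO and -0.05 in IPC+IPO against sham. With array weights it called 1 (IRI against sham), 1 (IPC against IRI), 3 (IPO against IRI), 3 (IPC+IPO against IRI), 6 (IPC against sham), 5 (IPO against sham), 4 (IPC+IPO against sham) and 6 (any group). With only the groups compared it called 2 in IPO against IRI, 5 in IPO against sham and 0 in IPC+IPO against sham; the trended and robust model also called 0 there. Without dim genes, or with median centring, it called 1 in IPC against sham. Leaving out each array gave 0 to 0 members in IRI against sham, 0 to 1 in IPC against IRI, 0 to 2 in IPO against IRI, 0 to 3 in IPC+IPO against IRI, 0 to 1 in IPC against sham, 1 to 4 in IPO against sham, 0 to 2 in IPC+IPO against sham and 1 to 4 over any group. Adora2b in IPO against sham was called without any 1 array (adjusted p 0.000363 to 0.00707). Among these alternatives, the share of all genes called was counted for the covariate fit alone. The other counts of members are therefore no result about the members. Causes of these shifts were not tested. No paired analysis was possible because no animal number is shared between groups. Signal over background cannot be read from RMA values, so that no detection limit is given.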

Other observations

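A further probe set carries the symbols of both Tmigd3 and Adora3 and was left out because its signal cannot be given to 1 gene. Its log2 level was 5.25 ± 0.19 (SD, n = 8) in sham and 5.35 ± 0.36 in IRI, beside 5.22 ± 0.34 for IPC, 5.05 ± 0.18 for IPO and 5.14 ± 0.24 for IPC+IPO (n = 10 each). The groups overlapped, as they did for the probe set of Adora3 alone.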
